A study of Mus musculus with 9 samples.

Results

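Protein folding genes were followed through the wound myeloid cells: the subunits of the cytosolic chaperonin, the heat shock proteins of the cytosol and of mitochondria, the chaperones of the endoplasmic reticulum (ER) and the transcription factors of the unfolded protein response. The 42 genes were taken by name from these families, not by a threshold on their values. A gene was read from the probe set that carries its symbol alone and has the highest mean over the 9 arrays. On that rule 38 of the 42 were measured, of 22180 genes in all, and no filter on dim genes was applied. Hsp90ab1, Dnaja1, Hsf1 and Pdia4 were not analysed here. All 38 stood above the median of the tested genes on every array (4.16 to 4.30 on the log2 scale), and 35 were at a log2 intensity of at least 6 on every array.

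Chaperones hold unfolded proteins in solution and let them fold, and each compartment of the cell has its own set. The cytosolic chaperonin is a double ring, built of Tcp1 and the Cct proteins, that closes around actin, tubulin and other substrates. In mitochondria Hspd1 forms a folding chamber with Hspe1 as its lid, while Hspa9 draws proteins in through the membrane. Heat shock factors switch on cytosolic and mitochondrial chaperones when unfolded protein builds up. In the ER the chaperone Hspa5 holds the stress sensors in check, and when it is drawn away the sensors act through Xbp1, Atf6 and Atf4 to raise the ER folding machinery. Monocytes and macrophages use these systems for secretion and antigen handling, and heat shock genes are also known to be switched on while tissue is digested into single cells.

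Cells came from the wounded plantar hindpaw of male C57BL/6J mice, 8 weeks of age, 24 h after an incision. They were sorted as CD11b+Ly6G- myeloid cells, that is, cells with an integrin chain of myeloid cells and without the neutrophil protein Ly6G, into Ly6C low, Ly6C medium and Ly6C high gates, with 3 arrays per gate. All gates thus share the strain, the wound and the CD11b+Ly6G- sort, no unwounded group was included, and all cells were collected 24 h after the incision. The labels do not say whether an array is 1 animal or a pool, so the tests speak to variation among these arrays, part of which may be technical. Values are log2 intensities after amplification of the RNA, and their precision is limited by having 3 arrays per gate.

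The transcript of the sorted protein followed the gates: Ly6c2 was at 7.69, 7.90 and 9.40 in low, 11.27, 11.20 and 11.20 in medium and 12.26, 12.48 and 12.08 in high. Low replicate 3 thus stood nearest to the other gates. Itgam, which encodes CD11b, was bright in every gate (10.58, 10.90 and 11.02 in low, medium and high), and Ly6g was dim (3.58, 3.06 and 3.02). Marker transcripts of other cell types also differed between the gates. Of 11 fibroblast markers 11 were lower in low than in high, and the mean of the list was 4.96 to 5.11 on the low arrays, 5.60 to 5.71 on the medium and 7.38 to 8.74 on the high. Of 12 tissue macrophage markers 10 were higher in low (list mean 9.79 to 10.01 in low, 8.21 to 8.89 in medium and 7.47 to 7.93 in high), and of 11 dendritic cell markers 6 were higher (6.73 to 6.88, 5.18 to 5.24 and 4.74 to 5.16). Of 9 classical monocyte markers 8 were lower in low than in high (list mean 7.58 to 8.61 in low, 9.56 to 9.85 in medium and 10.32 to 10.54 in high), and of 7 eosinophil markers 3 were higher, in a dim list (4.25 to 4.43, 3.69 to 4.05 and 3.53 to 3.73). Of 11 proliferation markers 3 were higher in low, Top2a, Mcm3 and Mcm6, with a list mean of 6.30 to 7.0 in low, 5.72 to 5.98 in medium and 5.63 to 5.79 in high. Each gate is a mixture, and in such bulk samples fewer cells of a type and less RNA per cell cannot be told apart.

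Promoter sequences are shown for genes on which the results turn, because the families carry different known response elements. They come from RefSeq on the GRCm38.p6 build and run from 250 bases before the annotated start to 50 after it, and 32 of the 42 genes had an entry. The heat shock element was searched as GAANNTTCNNGAA and the ER stress element as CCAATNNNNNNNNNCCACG, both on either strand. The window shown for Hspd1 (chr1:55087883-55088182, minus strand) holds 2 overlapping heat shock elements, in capitals, and 285 of its bases lie in the window of Hspe1, which is read in the opposite direction from the same stretch. The window of Hsph1 (chr5:149636266-149636565, minus strand) holds 1 heat shock element, and that of Hspa5 (chr2:34771840-34772139, plus strand) holds 1 ER stress element, also in capitals.
Hspd1: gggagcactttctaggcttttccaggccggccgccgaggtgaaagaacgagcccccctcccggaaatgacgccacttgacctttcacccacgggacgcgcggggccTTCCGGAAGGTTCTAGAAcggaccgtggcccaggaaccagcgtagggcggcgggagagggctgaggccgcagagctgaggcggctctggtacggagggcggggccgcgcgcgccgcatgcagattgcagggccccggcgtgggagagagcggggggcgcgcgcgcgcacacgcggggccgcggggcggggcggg
Hsph1: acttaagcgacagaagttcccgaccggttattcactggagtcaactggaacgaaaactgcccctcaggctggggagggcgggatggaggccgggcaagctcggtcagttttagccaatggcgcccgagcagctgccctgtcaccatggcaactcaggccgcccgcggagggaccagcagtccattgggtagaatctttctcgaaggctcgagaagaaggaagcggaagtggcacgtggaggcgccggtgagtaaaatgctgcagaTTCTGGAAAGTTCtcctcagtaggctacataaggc
Hspa5: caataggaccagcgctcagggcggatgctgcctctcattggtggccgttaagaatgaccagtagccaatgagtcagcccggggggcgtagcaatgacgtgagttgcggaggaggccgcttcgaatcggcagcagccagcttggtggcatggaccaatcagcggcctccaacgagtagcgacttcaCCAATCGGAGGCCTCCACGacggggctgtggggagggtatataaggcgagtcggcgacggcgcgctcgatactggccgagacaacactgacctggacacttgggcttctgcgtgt

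The neighbouring heat shock genes Hspa1a (chr17:34972107-34972406, minus strand) and Hspa1b (chr17:34959189-34959488, minus strand) are copies of each other, and their windows are shown because the copies limit what can be read of either gene. They match at 296 of 300 positions, and the 4 that differ are in capitals.
Hspa1a: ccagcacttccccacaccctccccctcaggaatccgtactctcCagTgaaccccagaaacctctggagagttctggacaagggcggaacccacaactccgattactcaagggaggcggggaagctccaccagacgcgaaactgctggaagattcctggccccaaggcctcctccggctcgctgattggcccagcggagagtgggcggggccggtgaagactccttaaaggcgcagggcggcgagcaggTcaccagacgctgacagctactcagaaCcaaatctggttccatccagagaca
Hspa1b: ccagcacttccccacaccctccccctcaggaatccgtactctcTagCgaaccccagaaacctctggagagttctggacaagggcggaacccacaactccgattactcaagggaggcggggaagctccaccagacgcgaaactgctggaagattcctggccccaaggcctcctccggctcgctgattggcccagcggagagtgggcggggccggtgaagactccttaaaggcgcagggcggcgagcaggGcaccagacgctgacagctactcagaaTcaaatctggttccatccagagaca

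The elements were found in different gene groups. The heat shock element was found in 0.603% of the 32851 promoter windows, and among the genes studied in Hspd1, Hspe1 and Hsph1. The matches of Hspd1 and Hspe1 are the same 2 sites, read from opposite strands. Another annotated window of Hspd1 holds no match, and the match of Hsph1 lies after its annotated start. The ER stress element was found in 0.119% of windows, and among these genes in Creld2, Dnajc3, Hsp90b1, Hspa5 and Pdia6, all from the group of 11 ER genes with an entry. Its shorter part, the CCAAT box, was in 11 of those 11 and in 37.4% of all windows. The unfolded protein response element, searched as TGACGTGG, was in no window of these genes and in 0.676% of all. The matches in ER genes are written along the strand of the element, with the letters fixed by the search in capitals and the spacer, whose length the search also fixes, in lower case.
Hspa5: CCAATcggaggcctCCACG
Pdia6: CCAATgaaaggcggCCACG
Dnajc3: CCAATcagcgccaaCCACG
Creld2: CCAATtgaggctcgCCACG
Hsp90b1: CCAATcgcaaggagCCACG
A match is a description of letters and no evidence that a factor binds there. Only exact matches were counted, so a window without a match, such as those of Hspa1a and Hspa1b, may still hold a variant. Genes without an entry were not searched: Cct4, Hspa8, Hsp90aa1, Hsp90ab1, Hsf1, Hspa9, Hspa13, Hyou1, Manf and Atf6. Hsp90b1 holds a second element nearer its start, on the other strand.

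Between Ly6C low and Ly6C high cells, 2 of 3 mitochondrial chaperones, 1 of 7 chaperonin subunits and 2 of 11 cytosolic heat shock genes were higher in low, while 0 of 13 ER genes and 0 of 4 transcription factors passed. Hspd1, Hspa1a, Hspa9, Cct5 and Hsph1 were higher in low at a limma adjusted p under 0.05 over all genes, and no measured gene of the families was lower. These 5 of 38 make 13.2%, whereas 3.35% of all genes tested were higher and 2.32% lower, 5.67% together. Shares of all genes include many dim ones, whereas the 38 stood above the array median, so the 2 sets are unlike in brightness. When only the 6306 genes at a log2 of 6 or more on 3 arrays were fitted, 715 were higher and 590 lower. In that fit, which left out Dnajb4, 7 genes of the families were higher and 0 lower. At an unadjusted p under 0.05 there were 13 higher and 6 lower, against 10.4% and 7.46% of all genes, or 17.9% together. Low and high arrays did not overlap in 12 genes upward and 6 downward, which was so for 11.4% and 8.76% of all genes. The mean difference was above 0 in 20 genes and below it in 18, against 52.7% and 47.3% of all genes. The median log2 difference over the 38 was 0.041, and over all genes 0.012. The number of calls rested on single arrays: it was 1, Hspd1, without low replicate 1 or without low replicate 2, 3 without high replicate 3 or medium replicate 1, and 2, Hspd1 and Hsph1, when only the low and high arrays were fitted.

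**Figure D1:**
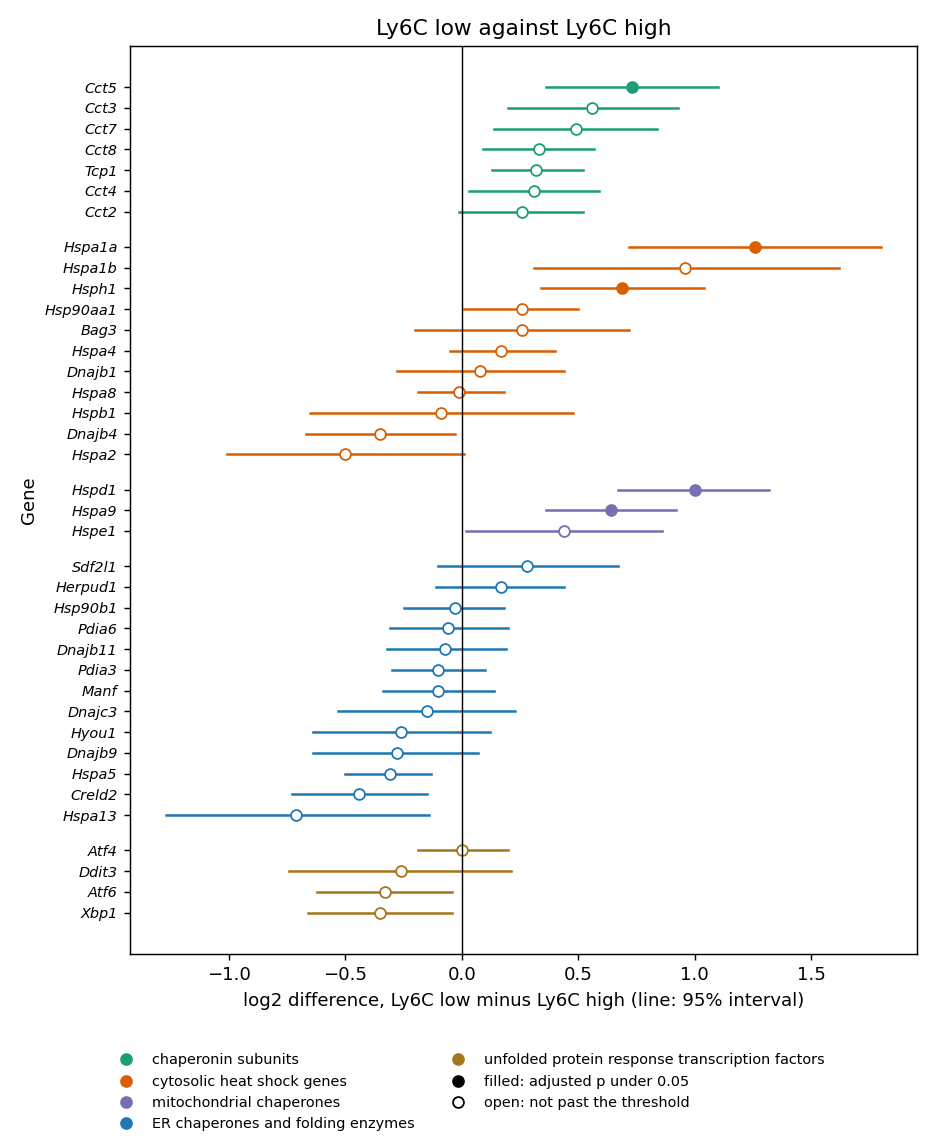
Log2 difference of each gene, Ly6C low minus Ly6C high (horizontal axis), with its 95% interval, by gene group, from a fit over 9 arrays with 3 per gate. Filled points (Hspd1, Hspa1a, Hspa9, Cct5 and Hsph1) are past an adjusted p of 0.05 and lie right of 0. Open points left of 0 include 11 of 13 ER genes, where 47.3% of all genes tested had a difference below 0.

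Hspd1, the mitochondrial folding chamber, showed the clearest separation. It was at 8.92, 9.13 and 9.28 in low, 8.04, 8.51 and 8.22 in medium and 8.19, 8.14 and 8.01 in high. Every low array was above every medium and every high array, and medium and high overlapped. The low mean was 2.00-fold the high mean (log2 difference 1.00, SE 0.14, adjusted p = 0.00534), and Hspd1 also passed against medium (0.85, SE 0.14, adjusted p = 0.0236). The call against high held in all 9 fits that left out 1 array and in 9 other settings, with a highest adjusted p of 0.0258. The call against medium held in 6 of the 9 fits without 1 array and was lost without medium replicate 3 (0.0944), low replicate 2 (0.0894) or medium replicate 1 (0.0743).

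Hspa9, the mitochondrial import chaperone, was at 10, 9.97 and 9.89 in low, 9.53, 9.53 and 9.33 in medium and 9.43, 9.44 and 9.06 in high. The low arrays lay close together and above all others. Its level in low was 1.56-fold that in high (log2 0.64, SE 0.12, adjusted p = 0.0192). Hspa9 missed the threshold without low replicate 1 (0.073), without low replicate 2 (0.0674) and in a fit of low and high alone (0.0567). Hspe1, the lid of the chamber and the gene that shares its promoter stretch with Hspd1, was at 8.91, 9.10 and 8.55 in low, 8.70, 8.85 and 8.40 in medium and 8.48, 8.62 and 8.14 in high. Its gates overlapped, and the difference between low and high of 0.44 (SE 0.19, 95% interval 0.02 to 0.86) was not past the threshold (adjusted p = 0.255). Whether the differences of Hspd1 and Hspe1 are themselves unequal was not tested.

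**Figure D2:**
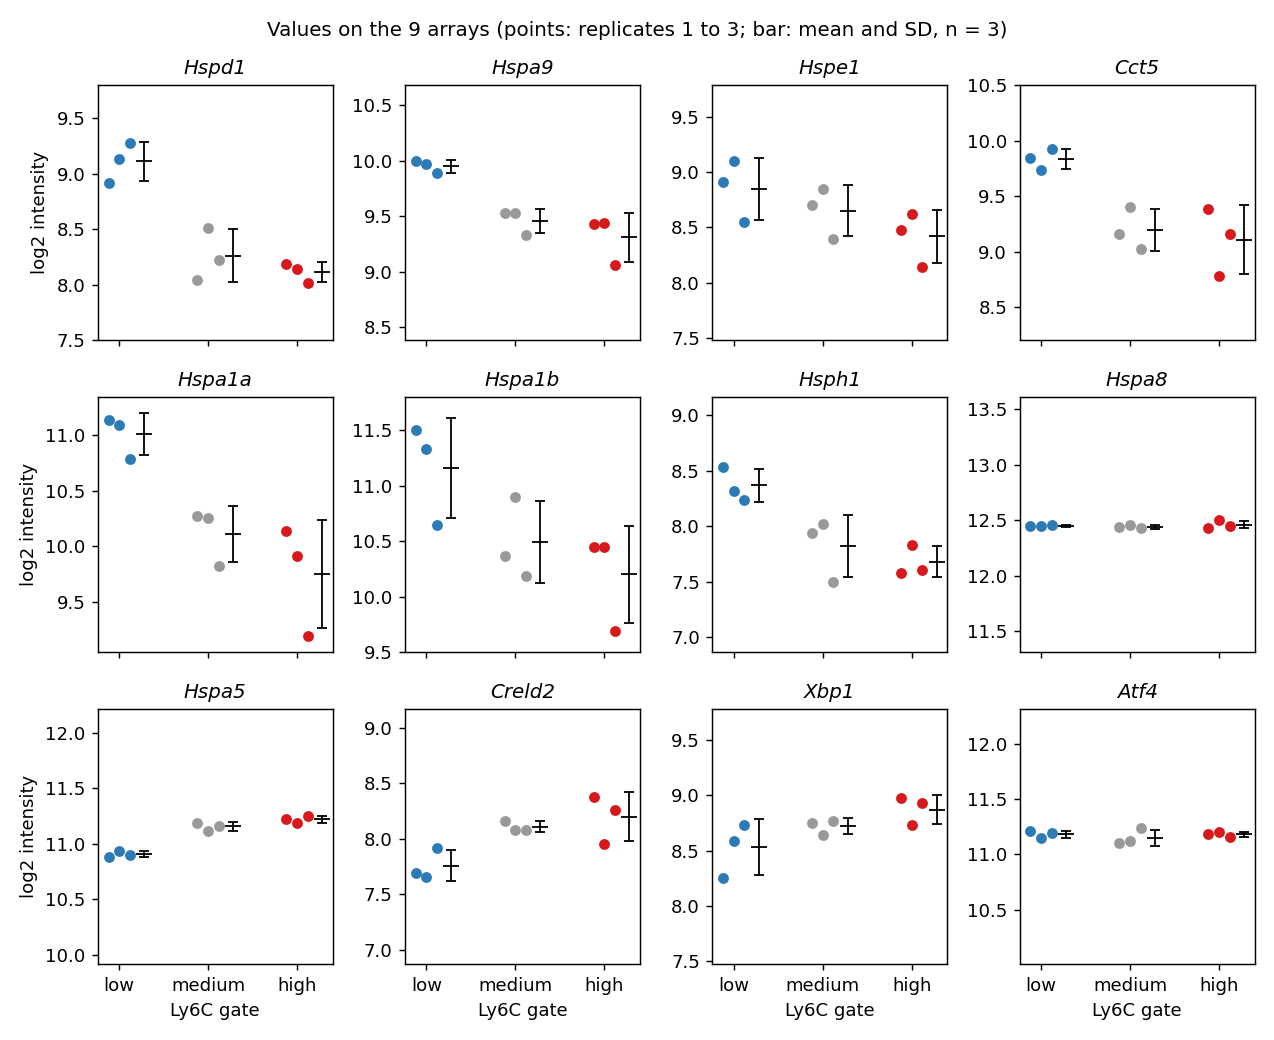
Log2 intensity on each array (points) for 12 genes, with the gate mean and SD (n = 3) beside them, for Ly6C low, medium and high. All panels span the same number of log2 units: Hspd1, Hspa9, Cct5, Hspa1a and Hsph1 stand higher in low, Hspa8 and Atf4 are level, and Hspa5 is lowest in low with little spread.

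The chaperonin ring showed small differences in one direction. All 7 measured subunits had a higher mean in low than in high, by 0.26 (Cct2) to 0.73 (Cct5), with a median of 0.331. Of all genes, 52.7% had a higher mean in low. In 6 of the 7 subunits the low and high arrays did not overlap, all with low above, against 11.4% of all genes. Of the 7 subunits Cct5 alone passed. It was at 9.85, 9.74 and 9.93 in low, 9.16, 9.40 and 9.03 in medium and 9.39, 8.78 and 9.16 in high, so that every low array exceeded the other 6. The ratio of low to high was 1.66 (log2 difference 0.73, SE 0.16, adjusted p = 0.0342), but the call held in only 3 of the 9 fits without 1 array (up to 0.104 without low replicate 1).

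Tcp1, the subunit that gave the ring its first name, had nearly no spread between replicates. It was at 8.56, 8.56 and 8.57 in low, 8.34, 8.26 and 8.36 in medium and 8.31, 8.18 and 8.23 in high. No low array overlapped the other gates, and the difference from high was 0.32 (SE 0.09), not past the threshold (adjusted p = 0.0666). After repeated quantile normalization it was 0.37 and passed (0.035). A dimmer probe set of Tcp1, at a mean of 4.04 and near the array median, had a difference of -0.10 (adjusted p = 0.916 over probe sets). Cct3 (7.36 ± 0.27 in low and 6.80 ± 0.15 in high, SD, n = 3), Cct7 (9.01 ± 0.21 and 8.52 ± 0.27), Cct8 (9.11 ± 0.10 and 8.77 ± 0.16), Cct4 (8.64 ± 0.12 and 8.33 ± 0.09) and Cct2 (9.70 ± 0.15 and 9.45 ± 0.15) had adjusted p-values of 0.0868 to 0.293. Cct6a, a subunit outside the 42 genes, was higher in low (9.65 ± 0.06, against 8.68 ± 0.18 in high), with a log2 difference of 0.97 (SE 0.11, adjusted p = 0.00181). It also passed against medium (0.60, adjusted p = 0.0293). The chaperonin genes had the same direction as the proliferation markers, of which 11 of 11 had a higher mean in low than in high, and the part of dividing cells in the chaperonin values was not tested.

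Of 11 measured cytosolic heat shock genes, Hspa1a and Hsph1 were higher in low than in high, and the median difference was 0.173. Hspa1a, the stress-inducible chaperone, was at 11.14, 11.09 and 10.79 in low, 10.27, 10.25 and 9.82 in medium and 10.14, 9.91 and 9.19 in high. Every low array was above the rest, while medium and high overlapped and high replicate 3 was lowest. The difference between low and high was 2.40-fold (log2 1.26, SE 0.24, adjusted p = 0.0177), the largest of the 38. The log2 difference was 1.19 without low replicate 1, 1.22 without low replicate 2 and 1.26 in the fit of those 2 gates alone, where the adjusted p no longer passed (0.0725, 0.068 and 0.0584). Its copy Hspa1b was at 11.50, 11.33 and 10.65 in low, 10.37, 10.90 and 10.19 in medium and 10.45, 10.45 and 9.69 in high. Low and high did not overlap, low replicate 3 lay below medium replicate 2, and the difference between low and high of 0.96 (SE 0.29) was short of the threshold (adjusted p = 0.101). Probes of such similar genes can bind both transcripts, so the values of Hspa1a and Hspa1b are uncertain as readings of either gene alone.

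Hsph1, which recharges the inducible chaperones with nucleotide, was at 8.53, 8.32 and 8.24 in low, 7.94, 8.02 and 7.50 in medium and 7.58, 7.83 and 7.61 in high. The low arrays lay above all others. The ratio of low to high was 1.61 (log2 0.69, SE 0.16, adjusted p = 0.0352), and the call held in 2 of the 9 fits without 1 array (up to 0.125 without low replicate 1). Other genes of the same induction programme did not pass: Dnajb1, a co-chaperone, was at 6.99, 6.79 and 6.91 in low, medium and high (adjusted p = 0.889 for low against high), and Bag3, a co-chaperone of selective autophagy, at 9.62, 9.23 and 9.35 (adjusted p = 0.607). Hspb1, a small heat shock protein, was at 6.06, 5.68 and 6.14 (adjusted p = 0.928). Hspa4, a relative of Hsph1, was at 8.73, 8.57 and 8.55 (adjusted p = 0.445). Hsp90aa1, the inducible form of the cytosolic chaperone that matures kinases and receptors, was at 7.47, 7.34 and 7.22, with low and high arrays that did not overlap and a difference of 0.26 (SE 0.11, adjusted p = 0.247).

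Hspa8, the constitutive partner of Hspa1a, was level. It was at 12.45, 12.45 and 12.46 in low, 12.44, 12.46 and 12.43 in medium and 12.43, 12.50 and 12.45 in high. The difference between low and high was -0.01 with a 95% interval of -0.19 to 0.18. The value lies near the top of the scale, since the brightest gene on the arrays was at 12.69 to 12.93, where differences of bright probe sets can be compressed. Whether that was so for Hspa8 was not tested. The other 3 probe sets of Hspa8, at means of 10.50 to 12.42, differed between low and high by -0.03 to 0.00. In the opposite direction, Hspa2, known from germ cells, was at 6.26, 6.53 and 6.76 in low, medium and high (difference -0.50, adjusted p = 0.287), and Dnajb4, dim at 4.57, 4.78 and 4.92, had a difference of -0.35 (adjusted p = 0.231) with low and high arrays that did not overlap.

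Some heat shock genes answer to tissue digestion, and genes of that response were read beside them. Of 12 immediate early genes, Egr1 was higher in low than in high (9.08 and 8.07, adjusted p = 0.033) and Ier3 lower (12.03 and 12.38, adjusted p = 0.0482). The mean of the list was 9.82 to 10.04 in low, 9.28 to 9.70 in medium and 9.84 to 10.13 in high, so low and high overlapped. Low stood above medium without overlap. Between these 2 gates 11 of the 12 genes had a higher mean in low, against 46.1% of all genes, with a median difference of 0.434. Of the 12, 1 passed there. The part of the digestion in the Hspa1a values was not tested.

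**Figure D3:**
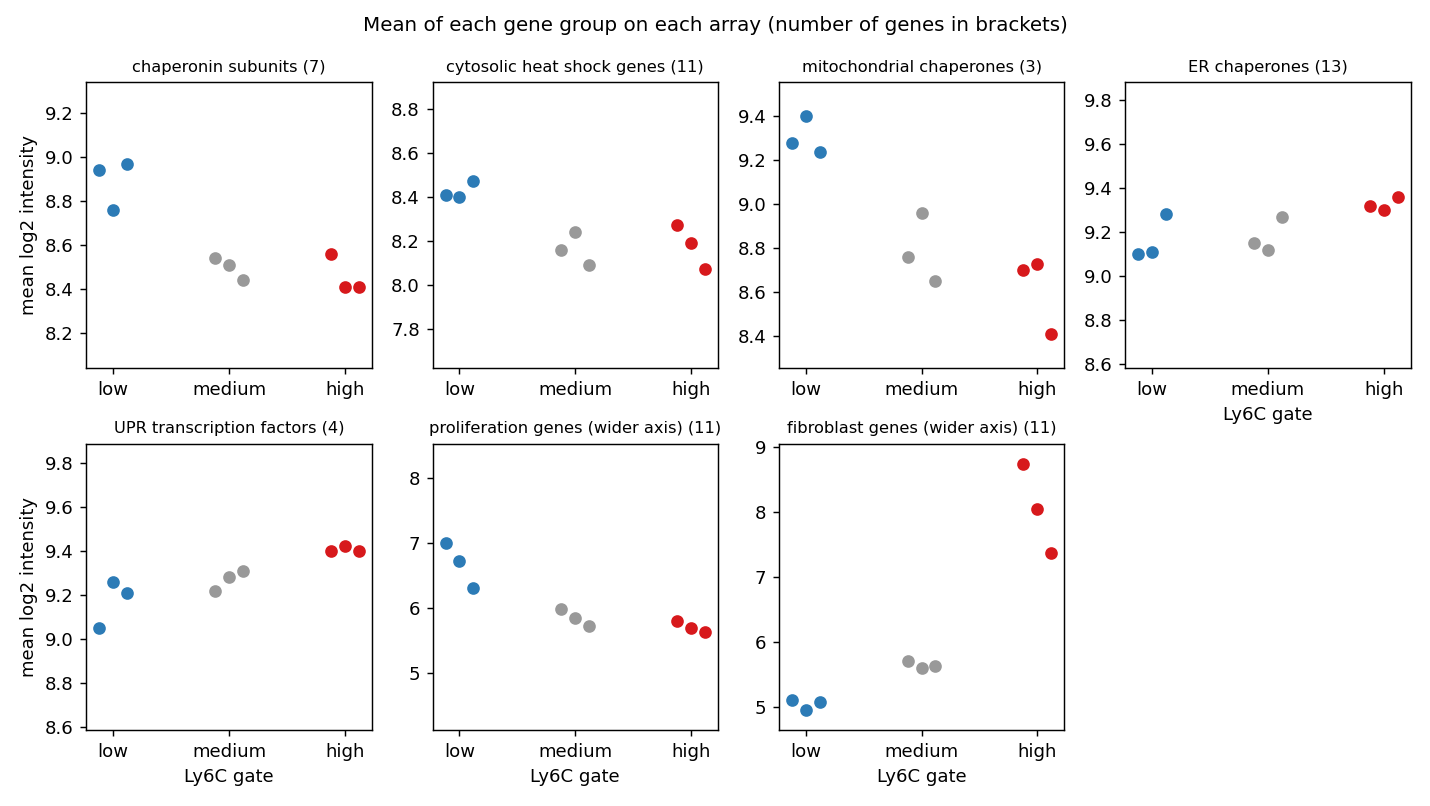
Mean log2 intensity of each gene group on each array, for Ly6C low, medium and high, with the proliferation and fibroblast markers on a wider axis. The mitochondrial and chaperonin groups are highest on the 3 low arrays, the ER and transcription factor groups on the 3 high arrays, and the fibroblast list separates high from both other gates.

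In the ER group the differences were small and mostly in the other direction. With limma 0 of 13 measured genes passed between low and high in either direction, against 5.67% of all genes. When only the 6306 genes at a log2 of 6 or more on 3 arrays were fitted, 1305 passed, and no ER gene of the families did. At an unadjusted p under 0.05 there were 0 higher and 3 lower, against 10.4% and 7.46% of all genes. Among the 13, 11 had a lower mean in low and 2 a higher one, against 47.3% and 52.7% of all genes. The median difference was -0.101. Hspa5, the master chaperone of the ER, was at 10.88, 10.94 and 10.90 in low, 11.19, 11.12 and 11.16 in medium and 11.22, 11.19 and 11.25 in high. The low arrays were below all others with a within-gate SD of 0.03, one of the smallest among the 38. The difference from high was -0.31 (SE 0.08, 95% interval -0.50 to -0.13, adjusted p = 0.0631), and it passed with a trended and robust prior (0.0373). Creld2, a secreted ER stress target, was at 7.69, 7.66 and 7.92 in low, 8.16, 8.08 and 8.08 in medium and 8.38, 7.95 and 8.26 in high. Here too the low arrays were the lowest, and the difference of -0.44 (SE 0.13) had an adjusted p of 0.0914, which became 0.0423 without high replicate 2. Hspa13, a microsomal relative of Hspa5, had the widest difference, -0.71 (SE 0.25, adjusted p = 0.161), at 7.0, 6.96 and 7.60 in low, 7.49, 7.13 and 7.93 in medium and 7.61, 7.85 and 8.23 in high. Its low arrays were below its high arrays, though low replicate 3 and high replicate 1 nearly met.

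Other ER genes differed by less. Hsp90b1, the ER form of the kinase chaperone, which folds integrins and Toll-like receptors, was at 11.29, 11.37 and 11.24 in low, 11.34, 11.35 and 11.34 in medium and 11.22, 11.34 and 11.45 in high, with a difference between low and high of -0.03 (95% interval -0.25 to 0.18). The disulphide isomerases Pdia3 (10.04, 9.96 and 10.14 in low, medium and high) and Pdia6 (9.48, 9.53 and 9.54) had gate means within 0.18. The arrays of Pdia3 did not overlap between any gates, but its difference between low and high was not past the threshold (adjusted p = 0.661). The co-chaperones Dnajb9 (9.95, 10.17 and 10.24), Dnajb11 (9.46, 9.36 and 9.53) and Dnajc3 (9.54, 9.58 and 9.69), the nucleotide exchange factor Hyou1 (8.77, 8.60 and 9.03) and the secreted factor Manf (7.15, 7.16 and 7.25) had adjusted p-values of 0.42 to 0.857 for low against high. Sdf2l1, which binds ER co-chaperones, went the other way at 8.63, 8.40 and 8.35 (adjusted p = 0.469).

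Herpud1, which helps to take misfolded proteins out of the ER, had its lowest values in medium. It was at 9.0, 8.81 and 9.15 in low, 8.56, 8.31 and 8.51 in medium and 8.83, 8.73 and 8.91 in high. Every medium array was below every array of the other gates. The difference of low from medium was 0.53 (SE 0.12, adjusted p = 0.0671) and that of medium from high -0.36 (SE 0.12, adjusted p = 0.501), so neither passed.

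The transcription factors of the unfolded protein response did not pass between any gates. Xbp1, which the sensor Ern1 activates by splicing, was at 8.25, 8.59 and 8.73 in low, 8.75, 8.64 and 8.77 in medium and 8.97, 8.73 and 8.93 in high. Low and high overlapped at 8.73, and the difference of -0.35 (SE 0.14) had an adjusted p of 0.205. The array reads Xbp1 as a gene and not its spliced form. Atf6, an ER membrane factor that is cut under stress, was at 8.96, 8.90 and 8.67 in low, 9.15, 8.75 and 8.84 in medium and 9.13, 9.21 and 9.17 in high. Its low arrays were all below its high arrays (difference -0.33, SE 0.13, adjusted p = 0.206). Atf4, whose protein is raised by translation under stress, was level at 11.18, 11.15 and 11.18 in low, medium and high, with a 95% interval of -0.19 to 0.20 for low minus high. Ddit3, the death-linked target of Atf4 also called Chop, was at 8.14, 8.29 and 8.40, with a difference of -0.26 (SE 0.21, adjusted p = 0.624).

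**Figure D4:**
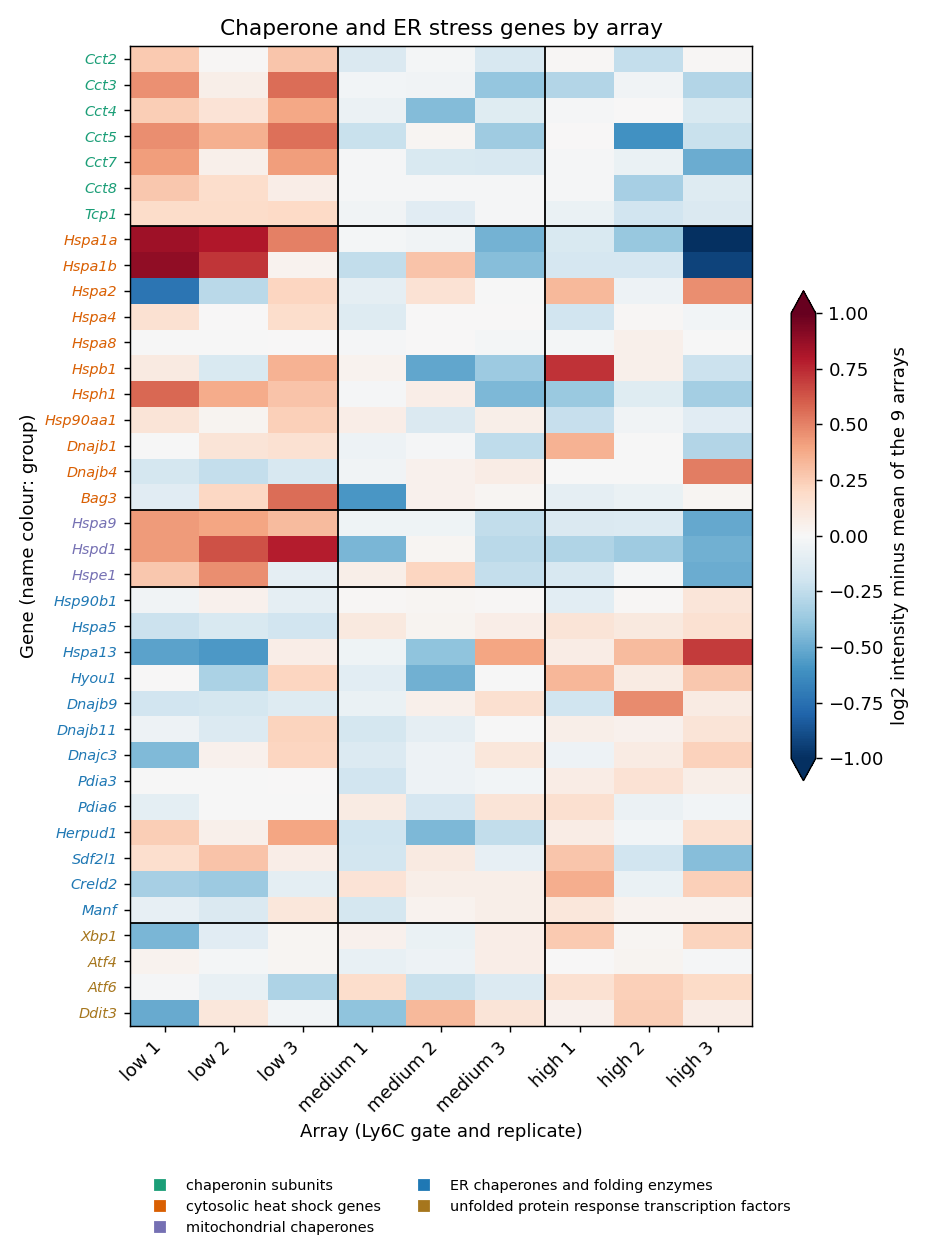
Log2 intensity of the 38 genes (rows, by group) on each of the 9 arrays (columns), each gene centred on its own mean. Red cells on the low arrays lie mainly in the chaperonin and mitochondrial rows and in Hspa1a, Hspa1b and Hsph1, and blue cells on the low arrays in ER rows such as Hspa5, Hspa13 and Creld2.

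No gene of the families passed between Ly6C medium and Ly6C high cells, and Hspd1 alone passed between low and medium. Between medium and high limma passed 0 of the 38 genes, against 0.0406% of all genes higher and 0.198% lower, 0.239% together. At an unadjusted p under 0.05 there were 0 higher and 2 lower, Hyou1 and Herpud1, against 3.72% and 3.81% of all genes, or 7.53% together. Medium and high arrays did not overlap in 0 genes upward and 5 downward, against 5.77% and 4.93%, and all 5 belong to the ER group. The mean difference was above 0 in 15 genes and below it in 23, against 56.8% and 43.1% of all genes. The fibroblast markers fell between the same gates, 8 of 11 at an adjusted p under 0.05. Between low and medium 1 of 38 passed, Hspd1, against 1.38% of all genes higher in low, 0.541% lower and 1.93% together. There 12 genes were higher and 2 lower at an unadjusted p under 0.05, which held for 8.54% and 5.53% of all genes, 14.1% together. Low and medium arrays did not overlap in 14 genes upward and 4 downward, against 9.25% and 7.58% of all genes. The mean difference was above 0 in 25 and below it in 13, against 46.1% and 53.9%. All 7 chaperonin subunits were among the 14, with a median difference of 0.403 and the lowest adjusted p at 0.0979 (Cct5). Between low and medium the fibroblast list means differed by less than between low and high, and 1 of 11 markers passed. Other marker lists did differ there. In low, 7 of 9 classical monocyte markers were lower than in medium, and 6 of 12 tissue macrophage and 6 of 11 dendritic cell markers were higher. Of 11 proliferation markers 1 was higher. The part of these cell types in the low against medium values was not tested. The comparisons share arrays of a gate and are given side by side. In an F test over the 3 gates Hspd1, Hspa1a and Hspa9 passed (adjusted p = 0.0109, 0.0419 and 0.0421), when 4% of all genes did; without low replicate 2 there were 0 such calls, and without any one of 6 other arrays there was 1. The gate means ran low above medium above high in 3 of 3 mitochondrial genes and 5 of 7 chaperonin subunits, against 21.3% of all genes. The opposite order held for 7 of 13 ER genes and 3 of 4 transcription factors, against 18.4%.

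Further genes of the same pathways, from lists of co-chaperones, degradation factors and stress sensors, were read in the same fit. Their counts stand beside 3.35% of all genes higher and 2.32% lower in low than in high. Calls of these genes, and of the cell type and digestion markers, were not followed through the alternative settings or the fits without 1 array. Among 11 prefoldin and other chaperonin genes, Cct6a was the only one past the threshold between low and high, and the median difference was 0.094. Of 25 cytosolic co-chaperones, 1 was higher and 0 lower, a share near that of all genes, and the median was 0.099. This was St13, which links the cytosolic chaperones, at 9.71, 9.81 and 10.11 in low, 9.42, 9.56 and 9.55 in medium and 9.13, 9.10 and 9.06 in high (difference 0.78, SE 0.12, adjusted p = 0.00635), with gates in strict order. Of 12 genes of mitochondrial folding and quality control, Dnaja3, a mitochondrial co-chaperone, was higher (6.08 and 5.54 in low and high, adjusted p = 0.049). Of the 12, 11 had a higher mean in low, against 52.7% of all genes, and the median was 0.447. Of 10 small heat shock proteins and heat shock factors, Hsbp1, which binds heat shock factor, was higher (10.99 and 10.38, adjusted p = 0.0365), and the median was -0.139.

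Of 20 further ER folding genes, 1 was lower in low than in high and 0 higher. Ero1a, the oxidase that recharges disulphide isomerases and is also raised by hypoxia, was at 9.28, 8.69 and 9.24 in low, 10.69, 9.92 and 10.32 in medium and 10.88, 10.30 and 10.57 in high. Low stood apart from both other gates (difference from high -1.51, SE 0.24, adjusted p = 0.00789, and from medium -1.24, adjusted p = 0.0378). The median difference of the list was -0.044. At an unadjusted limma p under 0.05 the list had 2 genes higher and 2 lower in low than in high, against 10.4% and 7.46% of all genes. Low and high arrays did not overlap in 2 genes upward and 3 downward, against 11.4% and 8.76% of all genes. Of 14 genes of ER-associated degradation, 2 were lower in low than in high and 0 higher, while the means of 7 lay above and 7 below those in high, with a median difference of -0.055. The called genes were Edem1, which marks misfolded glycoproteins (9.04, 9.01 and 8.81 in low, 9.59, 9.54 and 9.47 in high, adjusted p = 0.011), and the ubiquitin ligase Syvn1 (8.23, 8.25 and 8.70 in low, 9.01, 9.05 and 9.21 in high, adjusted p = 0.0253). Both are known Xbp1 targets, but the activity of Xbp1 was not tested. Among genes of the list that were not called, Derl1 was at 8.88 and 8.85 in low and high, and Derl2 at 8.57 and 8.56. Sel1l was at 7.67 and 7.79, and Edem3 at 7.51 and 7.93. Of 22 sensors and genes of the Atf4 branch, 1 was higher and 2 lower, with a median difference of -0.056. Ern1, the sensor that splices Xbp1, was lower at 9.07, 9.05 and 8.55 in low and 9.42, 9.48 and 9.56 in high (difference -0.60, SE 0.14, adjusted p = 0.0432). The ER-bound factor Creb3l2 was lower (5.10 and 5.64, adjusted p = 0.0475) and its relative Creb3 higher (7.85 and 6.94, adjusted p = 0.0437). Fibroblast and classical monocyte markers were lower in low than in high, as were these lower ER genes. Markers of B cells and of plasma cells, the latter rich in ER, gave 1 higher and 1 lower of 8. That list was dim, with a mean of 4.20 to 4.27 in low, 4.23 to 4.53 in medium and 4.05 to 4.25 in high. The part of these cells in the ER values was not tested.

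In the median these genes varied between replicates about as much as all genes tested, many of which are dimmer. The within-gate SD had a median of 0.17 over the 38 genes and 0.19 over all genes, and the range of the 3 gate means a median of 0.34 and 0.22. The widest spread within gates was that of Hspa1b (0.42), Hspa13 (0.36) and Hspb1 (0.35), and the narrowest that of Hspa8 (0.02) and Hspa5 (0.03). In all, 29 of 38 genes differed by less than 0.5 on the log2 scale between low and high, and 1, Hspa1a, by 1 or more. Hspd1, at 1.00 after rounding, was just under that bound.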

How the data were processed

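Gene expression was read from 9 arrays of sorted myeloid cells. The values are log2 intensities per probe set that the authors deposited after RMA, per the submitters' processing notes. Its version and settings, and the genome build, are not given in the sources used here. They were used as deposited. The table lists 41345 probe sets, of which 23521 carry 1 gene symbol and 1814 several, while 16010 have no entry in the platform annotation used. The brightest single-symbol probe set stood for each of 22180 genes, which decided between probe sets for 1082. Gene identifiers of 23328 probe sets matched RefSeq, and 0 symbols changed.

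Gates were compared in 1 two-sided limma fit (version 3.58.1, R 4.3.3) over 9 arrays, which leaves 6 residual degrees of freedom. P-values were adjusted by Benjamini-Hochberg over all genes, with a threshold of 0.05. The procedure was tested on simulated data. Correlations across genes were 0.983 to 0.989 within gates and 0.964 to 0.989 between gates. Deviations of arrays with the same replicate number correlated at -0.02 to 0.31. This range leaves a pairing undecided and the labels name none, so the numbers were not taken to pair samples.

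The genes, lists and tests were chosen with earlier results of these data known. Every gene past the threshold was named in its comparison, with Hspa5, Hsp90b1, Hspa1a, Hspa8, Hsp90aa1, Hspd1, Tcp1, Xbp1, Atf4, Atf6 and Ddit3 given whatever their test, and up to 4 called genes per pathway list. Alternatives were another normalization, centring, the mean of probe sets, 2 filters on dim genes, another prior, array weights, a replicate block, the 2 gates alone and leaving out each array. No set test was run.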

Additional observations from a re-analysis of the deposited data

How the results depend on the processing

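Among the differences of named genes of the families no called value changed direction under any alternative run. Leaving out 1 array gave 1 to 5 called genes of the families for low against high, 0 to 2 for low against medium, 0 to 0 for medium against high and 0 to 3 in the F test, and over all genes 596 to 1243, 119 to 522 and 2 to 72. With only the gates compared in the fit, the families had 2 calls for low against high and 0 for low against medium, and all genes 644, 211 and, for medium against high, 1, with fewer samples behind the spread. Leaving out genes under a log2 value of 6 gave 4 calls in the families for low against medium and 5 in the F test, with 6306 genes tested. The replicate block gave 7 calls for low against high (6 higher and 1 lower, Hspa13) and 3 for low against medium. It lost Cct5 (adjusted p = 0.0504) and added Hspa1b, Hspe1 and Hspa13. Herpud1 passed for low against medium with the block and with dim genes left out. For low against high with the block, Hspe1 had an adjusted p of 0.0352 and Hspa13 of 0.0221. The labels do not say whether the numbers pair the arrays, and not every array correlated best with those of its own number: Ly6C high replicate 1 did so with medium replicate 2 (0.13). Between low and medium, deviations correlated at 0.10 to 0.16 for the same number and at -0.13 to -0.02 for different numbers. High replicate 3 correlated with low replicate 3 at 0.11 and with medium replicate 3 at 0.31. Repeated quantile normalization turned Hspa8 for low against high to 0.01 and Atf4 for medium against high to 0.01, and centring turned Hsp90b1 for medium against high to -0.04; none of these was called and the cause was not tested. Without 1 array in turn, near-zero differences ran from -0.09 to 0.03 (Hsp90b1) and -0.02 to 0.01 (Hspa8) for low against high, from -0.05 to 0.07 (Hsp90b1) and -0.27 to 0.10 (Ddit3) for medium against high, and from -0.15 to 0.04 (Atf6) and -0.36 to 0.03 (Ddit3) for low against medium. Over all genes, low against medium split into 307 higher and 120 lower as deposited, and 242 and 162 after repeated quantile normalization. With the mean of all probe sets Tcp1 for low against high was 0.11 (adjusted p = 0.818), its second probe set being at -0.10.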

Other observations

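Some genes of the families had the same replicate number at an extreme in every gate. Hspa1a, Hspa1b, Hspa9 and Hspe1 were lowest on replicate 3 of low, medium and high alike, a pattern shown by 4.92% of all genes. Hspa1b was at 10.65, 10.19 and 9.69 on these arrays, and Hspe1 at 8.55, 8.40 and 8.14. Dnajb4, Hspa13, Dnajb11 and Dnajc3 were highest on replicate 3 in every gate, as were 4.64% of all genes. Bag3, Dnajb9, Dnajc3 and Ddit3 were lowest on replicate 1 in every gate, as were 3.92% of all genes. The labels give no meaning to the replicate numbers beyond the count.

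Cryab, a small heat shock protein of muscle and stromal cells, varied widely between replicates, at 5.93, 4.33 and 6.72 in low, 6.05, 5.66 and 5.83 in medium and 8.24, 6.28 and 6.66 in high. Its difference between low and high, -1.40, had a limma adjusted p of 0.286. It was chosen after its values were seen.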
